A study of Sus scrofa with 8 samples.

Results

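The ADAM, ADAMTS and ADAMTSL genes of the pig were followed in the endometrium, the inner lining of the uterus, on day 14 of pregnancy and on day 14 of the oestrous cycle. Members were the genes in the count tables whose Entrez ID carries a pig symbol of ADAM, ADAMTS or ADAMTSL followed by a number. They numbered 39 of 21064 genes, with 18 ADAM, 17 ADAMTS and 4 ADAMTSL genes, and each gene was read from its most highly counted transcript. ADAMTS17, ADAMTS18 and ADAMTSL1 have pig symbols but no transcript under their Entrez IDs in these tables and were not analysed here. The 4 pregnant gilts, young females, received Pietrain semen 24 h and 36 h after hCG, and the 4 control gilts received the supernatant of centrifuged semen from the same boar. All 8 were prepuberal German Landrace animals given 750 IU of PMSG, which ripens follicles, and 72 h later 500 IU of hCG, which triggers ovulation, so both groups carried an induced ovulation. Samples were cut from hyperaemic areas in pregnant gilts and from matching areas in controls, so pregnancy and the choice of area cannot be told apart. Each library is 1 animal and mixes RNA from 3 sites in a single horn, with the muscle layer removed.

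ADAMs are proteases anchored in the cell membrane that cut other membrane proteins close to the cell surface, a step called shedding, which releases growth factors, cytokines and receptors. ADAMTS proteases are secreted and bind the matrix through thrombospondin repeats. Some of them cut large proteoglycans such as versican, others trim the end of newly made collagen, and ADAMTS-like proteins keep the repeats but have no protease domain. Several ADAMs have lost the residues of the active site and act in adhesion or at the synapse, and others are known mainly from sperm. In the uterus, matrix proteases of this kind are known for the turnover of stroma and for remodelling at implantation. In the pig the conceptus attaches to the surface without invading it.

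Total counts per library ran from 28035007 to 41016150. Libraries of the same group had Spearman correlations of 0.967 to 0.986, and pairs of a pregnant and a control library had 0.916 to 0.957. All 12 listed genes typical of pig endometrium were measured, of which 3 were higher (HAND2, SPP1 and RBP4), 3 were lower (KRT18, ESR1 and MSX1) and 6 did not pass. CPM here are counts scaled to a library of fixed size after normalisation. The summed level of the 12 was 5745 to 7818 CPM in pregnant and 3250 to 5683 CPM in control gilts, and 636 to 1241 CPM in pregnant and 689 to 894 CPM in control gilts without RBP4. Sums of leukocyte, fibroblast, smooth muscle, epithelial and conceptus markers are likewise given with and without the gene whose group means differed most. This choice was made after seeing the data.

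Of the 39 members 34 had enough reads to be tested, and 10 passed an edgeR adjusted p of 0.05 (29.4%), 7 higher and 3 lower in pregnant endometrium. Over all 15913 genes tested the same threshold was passed by 21.6%, with 11.6% higher and 10.1% lower, so the members' share lay near the background. The 7 that rose were ADAMTS20, ADAMTS7, ADAM11, ADAM8, ADAMTSL4, ADAMTS14 and ADAM9, and the 3 that fell were ADAMTS1, ADAMTS15 and ADAM28. Without pregnant replicate 2 or pregnant replicate 4 only 1 member, ADAMTS1, passed as lower. Without pregnant replicate 2 or control replicate 3, 5 members passed as higher. The median log2 change, pregnant over control, was −0.04 over the 34 members and −0.02 over all genes tested. The 4 pregnant values lay wholly on one side of the 4 control values for 11 members (32.4%), 7 above and 4 below, against 25.9% of all genes tested. The 11 were all those that passed except ADAMTS15, together with ADAMTS2 and ADAMTS8.

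**Figure D1:**
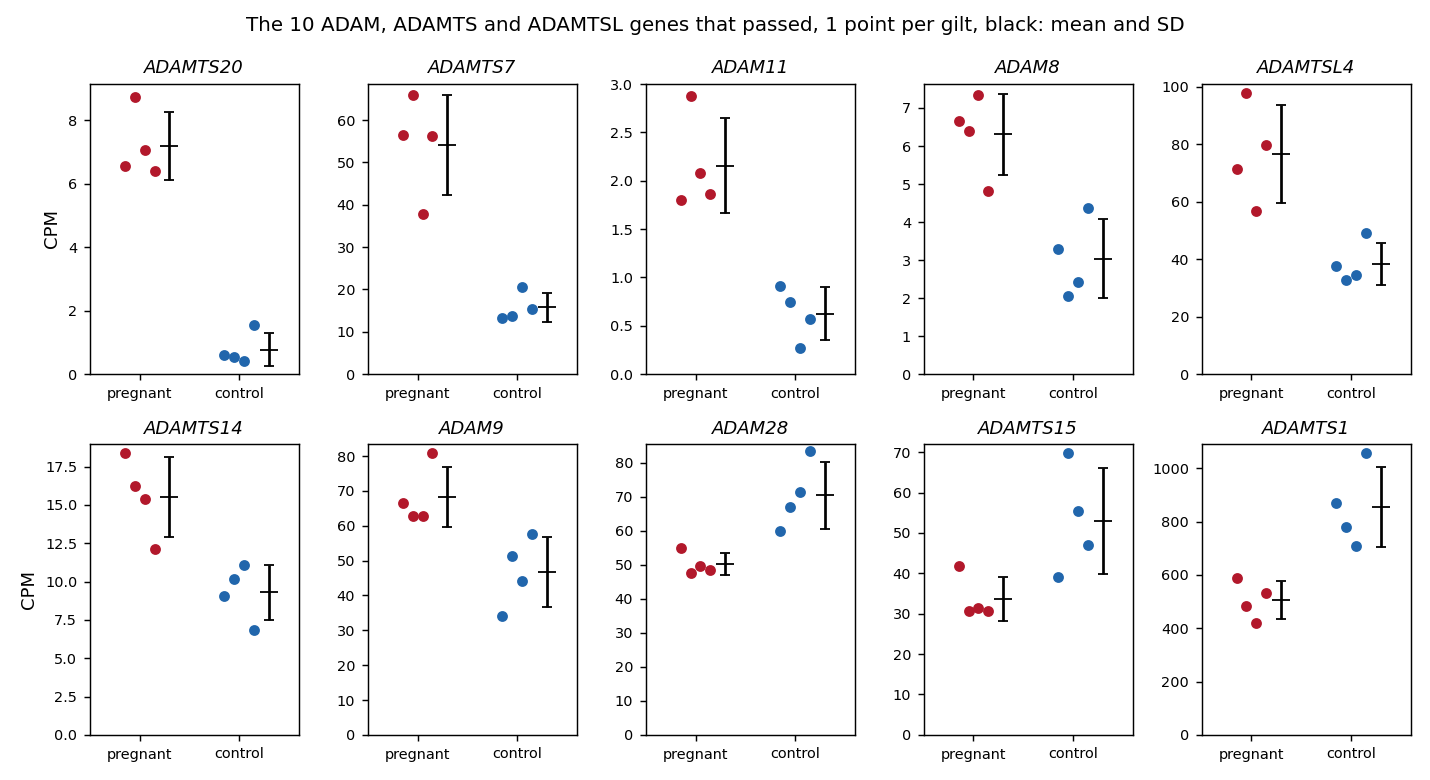
CPM of the 10 members that passed, 1 point per gilt, with pregnant gilts left of control gilts; the black bar is the mean with its SD (n = 4 each) and each vertical axis starts at 0. Points of the groups overlap only for ADAMTS15, where pregnant replicate 1 (41.8 CPM) stands above control replicate 1 (39.2 CPM).

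Levels of different genes were compared per length, as CPM per kilobase of exon of the deposited transcript model. ADAMTS1 had the highest level, with a mean of 169.7 CPM per kb over the 8 libraries, 2.13 times that of ADAM15. ADAM15 was at 79.7, ADAM28 at 23.0, ADAM10 at 20.8 and ADAMTS2 at 19.7 CPM per kb. In all, 12 members had a mean level of at least 10 CPM per kb, 13 lay between 1 and 10, and 14 lay below 1. ADAMTS1 alone made up 29.7% ± 1.72 of the summed level of the 39 members in pregnant gilts and 42.7% ± 3.13 in controls (SD, n = 4 each). Below ADAM15, the order of the means was not the same in the groups. ADAMTSL4 came next in pregnant gilts, at 23.9 ± 5.35 CPM per kb there and 12.1 ± 2.29 in controls, and ADAM10 stood within its SD, at 23.2 ± 4.49 in pregnant gilts and 18.4 ± 3.92 in controls. ADAM28 came next in controls, with 19.2 ± 1.23 in pregnant gilts and 26.9 ± 3.78 in controls (SD, n = 4 each). ADAMTSL4, ADAMTS10, ADAMTS15, ADAM33, ADAM9, ADAM17 and ADAMTS4 filled the remaining places above 10 CPM per kb, from 18.0 for ADAMTSL4 to 11.9 for ADAMTS4.

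**Figure D2:**
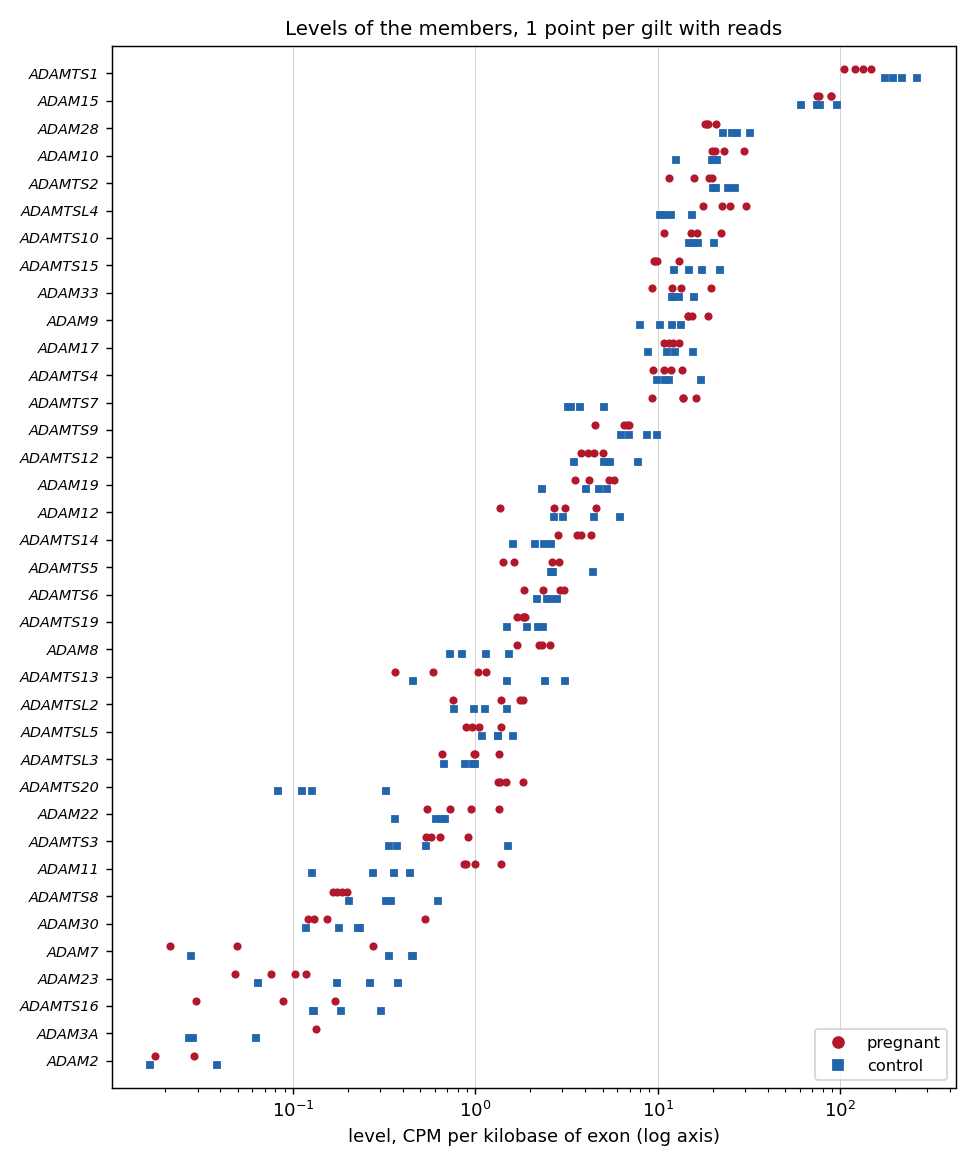
Level of each member in CPM per kilobase of exon on a log axis, genes in order of their mean over the 8 libraries, 1 point per gilt, with pregnant gilts drawn above control gilts. Libraries without reads are not drawn, and ADAM29 and ADAM5 are left out because at least 1 group had no reads. ADAMTS1 stands at the top and ADAMTS20, in the lower part, shows the widest gap between groups.

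The proteoglycanases are the ADAMTS members known to cut versican and aggrecan, and here they moved in both directions. Of 7 tested, ADAMTS20 rose, ADAMTS1 and ADAMTS15 fell, and 4 did not pass. The share that passed was 42.9% of only 7 genes, against 21.6% of all genes tested. ADAMTS1, which is induced by the luteinizing hormone surge and progesterone in the ovary of mice, was at 588, 484, 420 and 531 CPM in pregnant replicates 1 to 4, against 870, 781, 709 and 1058 CPM in control replicates 1 to 4. Every pregnant gilt lay below every control gilt. The mean was 505 ± 71.3 CPM in pregnant and 854 ± 151 CPM in control gilts (SD, n = 4 each), a log2 change of −0.76 ± 0.16 (SE; edgeR adjusted p = 0.00675; Sscrofa10.2 chromosome 13, 200127200 to 200135961, minus strand). In whole tissue fewer cells of a type and less RNA per cell cannot be told apart.

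ADAMTS20, a mammalian relative of a nematode protease needed for the shape of the gonad, was at 6.55, 8.73, 7.05 and 6.41 CPM in pregnant gilts. In controls it was at 0.610, 0.539, 0.398 and 1.55 CPM. The lowest pregnant gilt stood above the highest control, which was control replicate 4. The log2 change was 3.20 ± 0.39 (SE; edgeR adjusted p = 2.59e-04), the largest change among the members, and the ratio of the means was 9.28 (chromosome 5, 77324145 to 77484602, minus strand). It rests on 942 reads in pregnant and 102 in control gilts. ADAMTS20 made up 0.961% ± 0.208 of the summed proteoglycanase level in pregnant gilts and 0.0602% ± 0.0309 in controls, while ADAMTS1 held 79.7% ± 1.61 in pregnant and 83.8% ± 2.60 in control gilts (SD, n = 4 each).

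ADAMTS15, another versican-cutting member, was at 41.8, 30.6, 31.4 and 30.6 CPM in pregnant gilts and 39.2, 69.8, 55.5 and 47.1 CPM in controls. The groups overlapped through pregnant replicate 1 and control replicate 1. The log2 change was −0.66 ± 0.18 (SE; edgeR adjusted p = 0.0284; chromosome 9, 63398141 to 63420570, plus strand). The call was lost when control replicate 2 or 3, or pregnant replicate 2, 3 or 4, was left out, with an edgeR adjusted p of up to 0.0854.

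ADAMTS4 and ADAMTS5, the main aggrecanases of cartilage, did not pass. ADAMTS4 averaged 33.5 ± 5.02 CPM in pregnant and 36.5 ± 9.60 CPM in control gilts (SD, n = 4 each; log2 change −0.12 ± 0.19, edgeR adjusted p = 0.677), and its log2 change was 0.095 without control replicate 1. Its counts are uncertain, because the reads carry no strand. ADAMTS5 averaged 6.98 ± 2.36 CPM in pregnant and 10.0 ± 2.90 CPM in control gilts (log2 change −0.52 ± 0.27, edgeR adjusted p = 0.204). The highest of its control values, 14.4 CPM, was that of control replicate 4. ADAMTS9, which is close in structure to ADAMTS20, had a log2 change of −0.36 ± 0.18 (edgeR adjusted p = 0.189). ADAMTS8 was at 0.61 to 0.728 CPM in pregnant and 0.746 to 2.29 CPM in control gilts, without overlap between the groups, and at an edgeR adjusted p = 0.0684 it did not pass. Without control replicate 1 it passed (0.0324), and DESeq2 passed it as well (0.0476; range over the alternatives 0.0324 to 0.191).

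The procollagen N-proteinases ADAMTS2, ADAMTS3 and ADAMTS14 remove the amino-terminal end of fibrillar procollagens. ADAMTS14 rose, to 18.4, 16.2, 15.4 and 12.1 CPM in pregnant gilts, against 9.05, 10.18, 11.1 and 6.85 CPM in controls. No control value reached the lowest pregnant value. The log2 change was 0.74 ± 0.19 (SE; edgeR adjusted p = 0.0177; chromosome 14, 79413374 to 79502297, plus strand), with an adjusted p of 0.0521 without pregnant replicate 2. ADAMTS2, the most abundant of the 3, was at 70.7, 67.7, 41.1 and 56.3 CPM in pregnant and 74.5, 72.0, 86.2 and 94.7 CPM in control gilts. All pregnant values lay below the control values, but the edgeR adjusted p was 0.0781 (log2 change −0.47 ± 0.17). ADAMTS3 was at 2.44, 2.90, 2.58 and 4.15 CPM in pregnant and 1.53, 2.43, 1.69 and 6.85 CPM in control gilts, with the highest value in control replicate 4. Its log2 change was −0.05 ± 0.45 (edgeR adjusted p = 0.950) and 0.68 without control replicate 4.

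Among the other ADAMTS genes 1 of 7 passed (14.3%, against 21.6% of all genes tested). ADAMTS7, which like ADAMTS12 can cut cartilage oligomeric matrix protein, was at 56.5, 65.9, 37.9 and 56.2 CPM in pregnant gilts. In controls it was at 13.2, 13.7, 20.7 and 15.4 CPM, so all 4 pregnant gilts lay above all 4 controls. Its log2 change was 1.78 ± 0.20 (SE; edgeR adjusted p = 1.76e-04), with means of 54.1 ± 11.7 CPM in pregnant and 15.8 ± 3.42 CPM in control gilts (SD, n = 4 each; chromosome 7, 53449910 to 53467941, plus strand). ADAMTS12 averaged 14.7 ± 1.67 CPM in pregnant and 18.4 ± 6.10 CPM in control gilts (log2 change −0.33 ± 0.22, edgeR adjusted p = 0.330).

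ADAMTS12 has a reference transcript of 8 exons and a transcript of 11 exons assembled from the reads, which share 2636 exonic bases. The values above are those of the assembled one. The reference transcript averaged 5.12 ± 0.625 CPM in pregnant and 9.74 ± 5.12 CPM in control gilts (SD). Its log2 change was −0.93 ± 0.35 (SE) and did not pass (edgeR adjusted p = 0.0839). The reads of the reference transcript came to 40.1, 37.6, 28 and 35.2% of those of the assembled one in pregnant gilts, against 62.7, 61.3, 44.3 and 33.7% in controls. Control replicate 4 lay within the range of the pregnant gilts. The means of 35.3% in pregnant and 50.5% in control gilts gave p = 0.114 in a two-sided exact permutation test, where the smallest possible is 0.0286. The reference model also shares 99 exonic bases with another gene on its own strand.

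ADAMTS10 and ADAMTS6, both linked to fibrillin microfibrils, had log2 changes of −0.07 ± 0.20 and 0.02 ± 0.20, with edgeR adjusted p = 0.848 and 0.963. ADAMTS19 varied least among pregnant gilts, at 6.10 ± 0.274 CPM, against 6.72 ± 1.29 CPM in controls (SD, n = 4 each; edgeR adjusted p = 0.635). ADAMTS13, which cuts von Willebrand factor, was at 4.78, 4.36, 2.45 and 1.53 CPM in pregnant and 6.24, 1.92, 10.1 and 13.0 CPM in control gilts. The spread of the controls was wide and the log2 change of −1.25 ± 0.53 did not pass (edgeR adjusted p = 0.125), but it did without control replicate 2 (−1.57, adjusted p = 0.0194; range over the alternatives 0.0194 to 0.337). ADAMTS16 had 38 reads in pregnant and 101 in control gilts (log2 change −1.38 ± 0.74, edgeR adjusted p = 0.217).

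Of the 4 ADAMTS-like genes 1 passed (25.0%, against 21.6% of all genes tested). ADAMTSL4, whose product binds fibrillin microfibrils, was at 71.6, 97.8, 56.9 and 79.7 CPM in pregnant gilts and 37.5, 32.9, 34.5 and 49.1 CPM in controls. The groups did not overlap. With a log2 change of 0.99 ± 0.18 (SE; edgeR adjusted p = 0.00329) it had a ratio of 1.99 between the means (chromosome 4, 107825570 to 107833436, minus strand). ADAMTSL2, ADAMTSL3 and ADAMTSL5 averaged 5.28, 5.03 and 2.03 CPM in pregnant and 4.04, 4.46 and 2.54 CPM in control gilts, and their groups overlapped (edgeR adjusted p = 0.400, 0.655 and 0.371).

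Of the 10 ADAM sheddases, the members whose active site is kept in mammals, ADAM8 and ADAM9 rose, ADAM28 fell and 7 did not pass. The share that passed was 30.0%, against 21.6% of all genes tested. ADAM8, known from leukocytes, was at 6.65, 6.40, 7.35 and 4.82 CPM in pregnant gilts and 3.29, 2.07, 2.42 and 4.38 CPM in controls. The closest values, pregnant replicate 4 and control replicate 4, still kept the order of the groups. The log2 change was 1.05 ± 0.26 (SE; edgeR adjusted p = 0.0162, and 0.0506 without control replicate 3; chromosome 14, 153183646 to 153194216, minus strand). In the same libraries 9 of 11 tested markers of macrophages and dendritic cells were higher and 1 was lower, with a summed level of 1170 to 1550 CPM in pregnant and 391 to 719 CPM in control gilts (813 to 1060 CPM in pregnant and 295 to 501 CPM in control gilts without C1QB). The corresponding sums were 141 to 515 CPM in pregnant and 16.6 to 20.6 CPM in control gilts for 9 neutrophil markers, of which MPO had 0 reads and 3 of 8 tested rose and 1, MMP8, fell. S100A9 alone, at 118 to 492 CPM in pregnant and 0.271 to 0.630 CPM in control gilts, made most of that gap. Without it the neutrophil sums were 22.6 to 28.9 CPM in pregnant and 16.0 to 20.3 CPM in control gilts. For T and cytotoxic cells, 13 of 14 tested markers rose, with sums of 153 to 248 CPM in pregnant and 29.1 to 75.2 CPM in control gilts (104 to 192 CPM in pregnant and 23.4 to 65.0 CPM in control gilts without GNLY). The part of these cells in the ADAM8 result was not tested.

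ADAM9, a widely expressed sheddase, was at 66.5, 62.7, 62.8 and 81.0 CPM in pregnant gilts, against 34.2, 51.4, 44.0 and 57.6 CPM in controls. The groups did not overlap and the log2 change was 0.54 ± 0.17 (SE; edgeR adjusted p = 0.0392; chromosome 15, 54596011 to 54674607, minus strand). It no longer passed when control replicate 1, 2 or 3, or any 1 pregnant replicate, was left out, with adjusted p between 0.0516 and 0.113. ADAM28, known from lymphocytes and epithelia, was at 54.9, 47.7, 49.7 and 48.6 CPM in pregnant gilts and 60.1, 67.0, 71.4 and 83.6 CPM in controls. All pregnant values lay below the control values, and they were close together. It fell by 0.49 ± 0.12 on the log2 scale (SE; edgeR adjusted p = 0.0171), and the adjusted p was 0.0600 without pregnant replicate 2 and 0.0511 without pregnant replicate 4 (chromosome 14, 9418100 to 9481491, plus strand).

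ADAM10 and ADAM17, the best known sheddases, did not pass. ADAM10, which cuts Notch and cadherins, was at 31.0, 36.1, 32.4 and 46.6 CPM in pregnant and 19.8, 31.2, 31.8 and 33.0 CPM in control gilts (log2 change 0.34 ± 0.19, edgeR adjusted p = 0.238). ADAM17, which releases TNF and several ligands of the epidermal growth factor receptor, was at 21.9, 20.4, 18.3 and 19.3 CPM in pregnant and 14.9, 26.3, 19.0 and 20.9 CPM in control gilts (log2 change −0.02 ± 0.17, edgeR adjusted p = 0.946). The pregnant values of ADAM17 lay inside the range of the controls, and those of ADAM10 began inside it. ADAM15, the most abundant ADAM and a junction protein of endothelium and epithelium, averaged 245 ± 23.5 CPM in pregnant and 230 ± 43.5 CPM in control gilts (SD, n = 4 each; edgeR adjusted p = 0.702). Its 4 transcripts had log2 changes of 0.09 each and share most of their reads. ADAM12, which is abundant in human placenta, averaged 9.90 ± 4.45 CPM in pregnant and 13.9 ± 5.48 CPM in control gilts (edgeR adjusted p = 0.372). ADAM19 and ADAM33 had log2 changes of 0.20 ± 0.25 and 0.03 ± 0.21, and ADAM30 had 71 reads in pregnant and 52 in control gilts (edgeR adjusted p = 0.621, 0.933 and 0.709).

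Of the 8 remaining ADAMs 3 could be tested. ADAM11, which has no active protease site and is known from synapses of the mouse brain, was at 1.80, 2.87, 2.08 and 1.86 CPM in pregnant gilts. In controls it was at 0.916, 0.749, 0.266 and 0.573 CPM, below every pregnant gilt. It rose by 1.78 ± 0.37 on the log2 scale (SE; edgeR adjusted p = 0.00652), from 285 reads in pregnant and 80 in control gilts (chromosome 12, 18813560 to 18822987, minus strand). ADAM22, a synaptic relative without protease activity, averaged 3.25 ± 1.26 CPM in pregnant and 2.10 ± 0.533 CPM in control gilts (SD, n = 4 each; edgeR adjusted p = 0.194). ADAM7, known from the epididymis, had 25 reads in pregnant and 103 in control gilts (log2 change −1.93 ± 0.96, edgeR adjusted p = 0.185). Without pregnant replicate 1, which held 19 of the 25 reads, it passed (−3.65, adjusted p = 0.0307; range over the alternatives 0.0307 to 0.351).

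The 5 members under the read filter were ADAM2, ADAM3A, ADAM5, ADAM23 and ADAM29, and they were not tested. ADAM23, a neuronal adhesion protein, had 23 reads in pregnant and 59 in control gilts. The sperm genes ADAM2 and ADAM3A had 5 and 4 reads in pregnant and 6 and 4 in control gilts. ADAM5 had 0 reads in pregnant gilts, which allows up to 0.0232 CPM there, and 2 in controls. ADAM29 had 0 reads in all 8 libraries, which allows up to 0.0117 CPM. These limits cover counting error only.

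**Figure D3:**
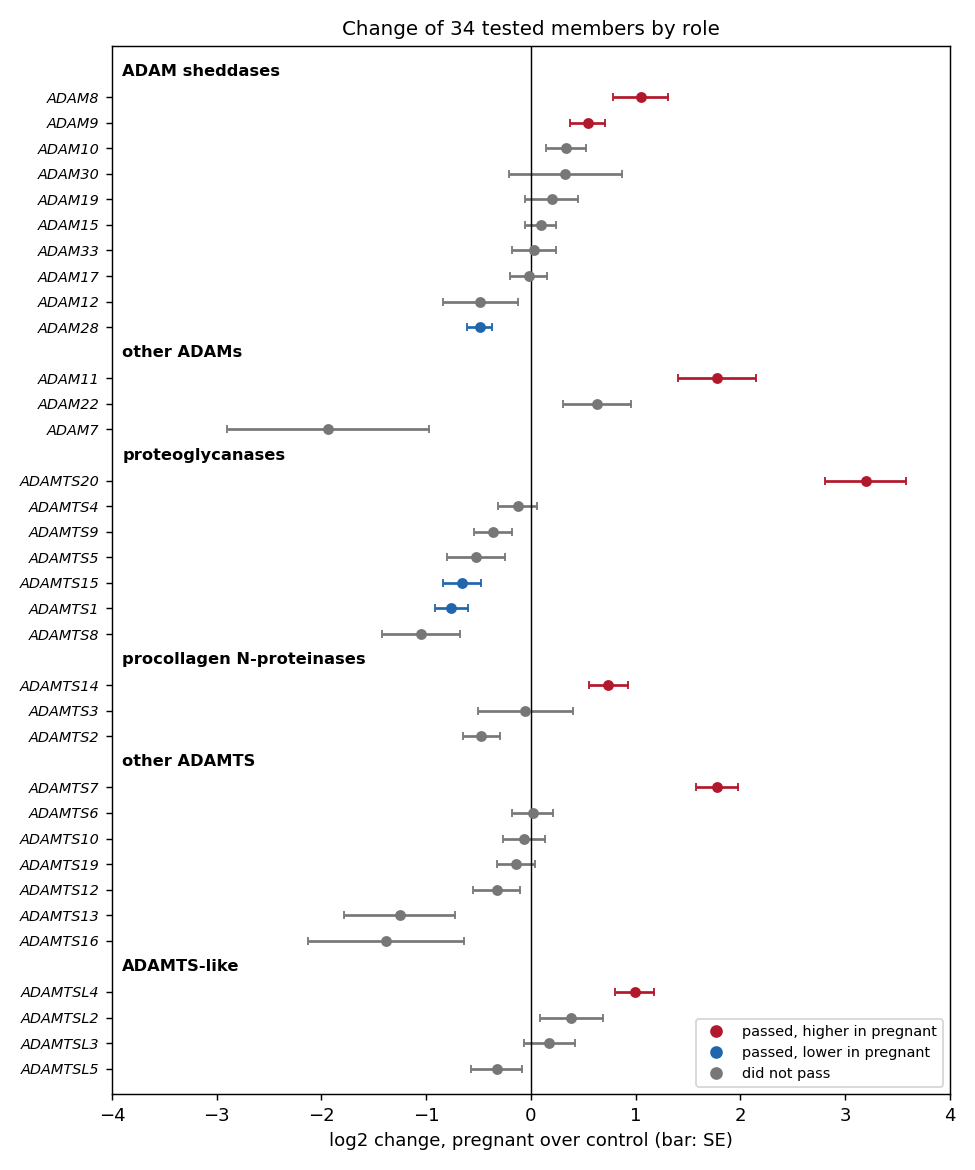
Log2 change, pregnant over control, of the 34 tested members by role; bars are SE from the edgeR fit (n = 4 each), and colours mark members that passed as higher or lower. Of the 7 proteoglycanases 6 lie left of 0, of which ADAMTS1 and ADAMTS15 passed, while ADAMTS20 stands furthest to the right at 3.20.

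Spread between animals differed among the members. The median coefficient of variation over the 34 tested members was 21.9% in pregnant and 24.0% in control gilts, against 17.2% in pregnant and 20.9% in control gilts over all genes tested. The lowest was that of ADAMTS19 in pregnant gilts (4.49%) and that of ADAMTS6 in controls (10.4%). The highest was that of ADAM7 in pregnant gilts (147%) and that of ADAMTS3 in controls (80.5%). Control replicate 4 was the highest control for 17 of the 34 members, and pregnant replicate 3 the lowest pregnant gilt for 16.

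Several members lie near each other in the genome, most with other listed genes between them. ADAMTS8 and ADAMTS15 are 17375 bases apart on chromosome 9, on opposite strands with no listed gene between them, and had log2 changes of −1.05 and −0.66, of which ADAMTS15 passed. ADAMTS1 and ADAMTS5 are 269 kb apart on chromosome 13 on the same strand, with 1 listed gene between them. Their log2 changes were −0.76 and −0.52, and ADAMTS1 passed. ADAM28 and ADAM7 are 42.8 kb apart on chromosome 14, with 1 listed gene between them. Their log2 changes were −0.49 and −1.93, and ADAM28 passed. ADAMTS13 and ADAMTSL2, 62.7 kb apart on chromosome 1 with 3 listed genes between them, had log2 changes of −1.25 and 0.39 and neither passed. ADAM5 lies 171 kb from ADAM2 and 143 kb from ADAM9 on chromosome 15, and only ADAM9 was tested there.

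Of 13 tested stromal fibroblast markers 3 rose and 3 fell, and their summed level was 17093 to 24889 CPM in pregnant and 25893 to 31141 CPM in control gilts. Without COL3A1 the groups overlapped, at 10223 to 13658 CPM in pregnant and 11535 to 14479 CPM in control gilts, and 8 of the 13 markers had log2 changes above 0. None of 9 tested smooth muscle markers rose and 5 fell, with sums of 906 to 1236 CPM in pregnant and 1255 to 1617 CPM in control gilts, which overlapped without ACTA2 (692 to 908 CPM in pregnant and 835 to 1031 CPM in control gilts). Of 13 tested epithelial markers 1 rose and 4 fell, with sums of 1967 to 2666 CPM in pregnant and 2538 to 3882 CPM in control gilts. Without KRT8 the epithelial sums were 1735 to 2326 CPM in pregnant and 1474 to 2324 CPM in control gilts. Among endothelial markers, 2 of 12 vascular ones rose and 0 fell, with sums of 1536 to 2125 CPM in pregnant and 1354 to 1903 CPM in control gilts, and 2 of 4 lymphatic ones fell and 0 rose, with sums of 21.4 to 49.2 CPM in pregnant and 27.8 to 59.8 CPM in control gilts. ADAM28 is known from lymphocytes as well as epithelia. Of tested lymphocyte markers, 13 of 14 for T and cytotoxic cells and 3 of 7 for B and plasma cells were higher, and 0 were lower. No marker of these lists was at 0 reads. The part of any of these cells in the lower ADAMTS1, ADAMTS15 and ADAM28 was not tested. Of 6 tested genes listed as conceptus markers 2 rose and 1, GATA2, fell. Summed over the 11 measured ones, the level was 78.0 to 100 CPM in pregnant and 133 to 173 CPM in control gilts. Without GATA2 the sums were 7.93 to 10.6 CPM in pregnant and 3.89 to 7.02 CPM in control gilts. The part of conceptus RNA in any member, higher or lower, was not tested.

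Of 12 tested genes for the maturation and trafficking of ADAMs 1 rose, 1 fell and 10 did not pass. The share that passed was 16.7%, against 21.6% of all genes tested. This list and the 5 partner lists below were chosen with earlier results of these data known. RHBDF2, an inactive rhomboid protein that escorts ADAM17 to the surface of immune cells, was at 64.3, 90.6, 89.3 and 92.7 CPM in pregnant gilts, against 27.3, 23.2, 22.7 and 23.1 CPM in controls. All pregnant gilts lay above all controls, and the log2 change was 1.81 ± 0.14 (SE; edgeR adjusted p = 1.95e-05). RHBDF1, its relative in other cells, averaged 227 CPM in both groups (log2 change 0.00, edgeR adjusted p = 0.998). PCSK6, a convertase that removes prodomains, fell (log2 change −0.71 ± 0.17, edgeR adjusted p = 0.0118), and FURIN averaged 457 CPM in pregnant and 494 CPM in control gilts (edgeR adjusted p = 0.534).

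Of 5 tested genes listed for folding and clearance of ADAMTS proteins, with the family relative PAPLN among them, 3 fell and 0 rose. This was 60.0% passing, against 21.6% of all genes tested. POFUT2 and B3GLCT, which add a disaccharide to thrombospondin repeats, fell by 0.61 ± 0.17 and by 0.68 ± 0.16 on the log2 scale (SE; edgeR adjusted p = 0.0313 and 0.0125). PAPLN, which encodes papilin, a protein related to the ADAMTS family, averaged 5.02 ± 1.45 CPM in pregnant and 12.8 ± 1.11 CPM in control gilts (SD, n = 4 each; edgeR adjusted p = 0.00105). Of 6 tested protease inhibitors 3 rose and 0 fell (50.0% passed, against 21.6% of all genes tested). TIMP3, the inhibitor with the broadest action on ADAMs and ADAMTS proteases, averaged 789 ± 88.7 CPM in pregnant and 535 ± 79.9 CPM in control gilts (edgeR adjusted p = 0.0183). TIMP1, which inhibits ADAM10, averaged 190 ± 47.0 CPM in pregnant and 105 ± 40.6 CPM in control gilts (edgeR adjusted p = 0.0341). SERPING1, an inhibitor of serine proteases of complement, rose by 1.48 ± 0.30, and the membrane inhibitor RECK averaged 24.7 CPM in pregnant and 29.6 CPM in control gilts (edgeR adjusted p = 0.00602 and 0.277).

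Of 36 tested genes whose proteins are shed by ADAM10 or ADAM17, 18 rose, 2 fell and 16 did not pass, with a median log2 change of 0.67. The share that passed was 55.6%, against 21.6% of all genes tested. CD40, MERTK, IL1R2 and CX3CL1 had the smallest p and log2 changes of 2.18 ± 0.15, 1.85 ± 0.18, 4.44 ± 0.50 and 1.76 ± 0.21 (SE; edgeR adjusted p = 9.41e-06, 6.01e-05, 1.80e-04 and 2.19e-04). IL1R2 had 1093 reads in pregnant and 51 in control gilts, and control replicate 4 held 33 of the 51. Among ligands of the epidermal growth factor receptor, HBEGF averaged 6.49 ± 1.97 CPM in pregnant and 1.83 ± 0.945 CPM in control gilts (SD, n = 4 each; edgeR adjusted p = 0.00600). AREG had 136 reads in pregnant and 6 in control gilts (edgeR adjusted p = 0.00158), and 2 of the 4 controls had 0 reads. TNF averaged 2.65 ± 1.39 CPM in pregnant and 0.368 ± 0.255 CPM in control gilts (edgeR adjusted p = 0.00255). The 2 that fell were SDC1, a membrane proteoglycan (log2 change −1.52 ± 0.25), and TREM2, a receptor of macrophages, with 4 reads in pregnant and 84 in control gilts (edgeR adjusted p = 0.00167 and 0.00823). The list includes proteins of immune cells, whose markers rose in the same libraries as given beside ADAM8, and their part here was not tested.

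Of 16 tested matrix substrates of ADAMTS proteases 1 rose and 3 fell (25.0% passed, against 21.6% of all genes tested). The median log2 change was −0.22. Versican (VCAN), the best known substrate of ADAMTS1, averaged 50.0 ± 7.00 CPM in pregnant and 62.2 ± 22.1 CPM in control gilts (SD, n = 4 each; edgeR adjusted p = 0.370). Fibromodulin (FMOD), a small proteoglycan on collagen fibrils, averaged 18.6 ± 1.94 CPM in pregnant and 111 ± 38 CPM in control gilts (edgeR adjusted p = 6.82e-05). The collagen gene COL3A1 and the basement membrane gene NID2 fell by 0.67 ± 0.18 and by 0.60 ± 0.17 on the log2 scale, and lumican (LUM) rose by 0.45 ± 0.13 (SE; edgeR adjusted p = 0.0229, 0.0258 and 0.0320). Reads of COL3A1 are uncertain, because another gene covers some of its exonic bases.

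Of 18 tested genes of microfibrils and of the storage of TGF-beta 2 rose and 5 fell, with a median log2 change of −0.41. The share that passed was 38.9%, against 21.6% of all genes tested. Fibrillin-1 (FBN1), which binds ADAMTSL4, averaged 137 ± 25.1 CPM in pregnant and 98.9 ± 15.2 CPM in control gilts (SD, n = 4 each; edgeR adjusted p = 0.0650). MFAP5, a microfibril glycoprotein, averaged 5.08 ± 1.4 CPM in pregnant and 259 ± 158 CPM in control gilts (edgeR adjusted p = 1.06e-04). LTBP2, a fibrillin relative, fell by 1.16 ± 0.17, and the growth factors TGFB2 and TGFB1 rose by 1.35 ± 0.17 and 0.90 ± 0.14 on the log2 scale (SE; edgeR adjusted p = 8.83e-04, 2.88e-04 and 9.23e-04). Over the 92 tested partner genes of these 6 lists, each counted once, 25 rose and 14 fell. Of these partner genes 42.4% passed, against 21.6% of all genes tested. Because the lists were chosen with earlier results known, the shares cannot show that partner genes passed more often than other genes.

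**Figure D4:**
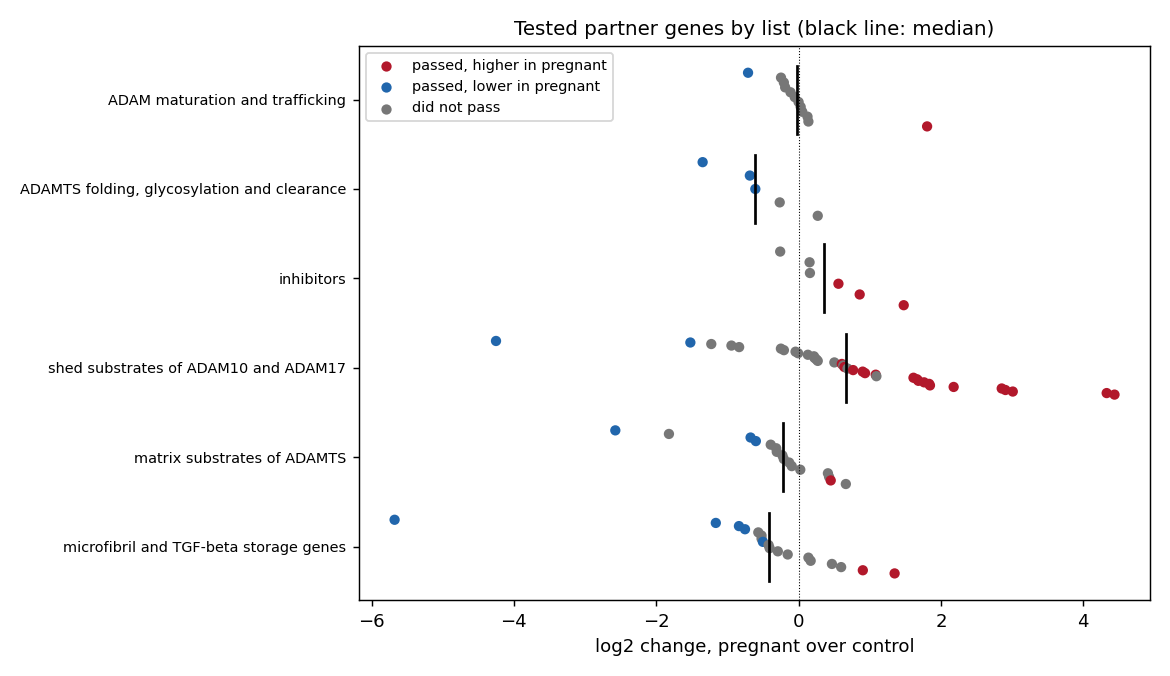
Log2 change, pregnant over control, of the tested partner genes in 6 lists, 1 point per gene, with the median of each list as a black line and genes that passed in colour. The list of shed proteins has its median at 0.67 and the list of folding and clearance genes, which includes PAPLN, at −0.61.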

How the data were processed

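Endometrial RNA of 4 pregnant and 4 control gilts was sequenced as poly(A) libraries with random primers and an unmarked second strand, per the labels' protocols, so reads carry no strand. Whole, unnormalised read counts for each transcript were deposited by the authors, with 2 annotation files of exon positions. TopHat 1.4, Cufflinks 1.3, CASAVA 1.6, DESeq and the build Sscrofa10.2 appear in the submitters' processing notes. The counting tool is not given in the sources used here. Transcripts of 1 gene can share reads. Positions are 1-based, from the deposited annotation. Symbols alone were taken from RefSeq (Sscrofa11.1).

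The counts were fitted over the whole table with edgeR 4.0.16 in R 4.3.3 (robust quasi-likelihood test with group as the only term, TMM scaling, transcripts kept by filterByExpr at a minimum of 10 counts), with Benjamini-Hochberg adjustment over 18783 transcripts and a threshold of 0.05. Background shares are over the highest transcript of each gene. SE were derived from the F statistic, and CPM use TMM-scaled library sizes. P-values measure the spread between animals of 1 experiment. DESeq2 1.42.0, limma 3.58.1 voom, other size factors, no filter, 1 transcript per gene, a replicate block and each library left out were tried.

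The members and lists were chosen with earlier results of these data known. Members planned for naming in detail were those that passed, the 10 with the highest level and 11 fixed genes. Of these, ADAMTS10 and ADAM33 are given without CPM of their own. The remaining members, some of them given in detail, and SDC1, TREM2, RHBDF1 and FURIN, were named after their values were seen. An overlap between gene models is not reported here.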

Additional observations from a re-analysis of the deposited data

Results flagged for a closer look

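In 5 of the 68 groups of 4 gilts examined, 34 members in pregnant and in control endometrium, 1 gilt stood far from the other 3, with a gap to the nearest of them above Dixon's critical share of the whole range. Chance flags about 1 in 20 such groups. ADAMTS15 was at 41.8 CPM in pregnant replicate 1 and at 30.6 to 31.4 CPM in the other pregnant gilts, and ADAM30 at 1.15 CPM in pregnant replicate 2 and at 0.265 to 0.336 CPM in the others. Among controls, ADAM10 was at 19.8 CPM in control replicate 1 and at 31.2 to 33.0 CPM in the others. Control replicate 4 was the high value for ADAMTS5, at 14.4 CPM against 8.45 to 8.66 CPM, and for ADAMTS3, at 6.85 CPM against 1.53 to 2.43 CPM.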

How the results depend on the processing

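Each tested member was refitted under 14 alternatives. ADAMTS1, ADAMTSL4, ADAMTS7, ADAMTS20 and ADAM11 passed under all 14, and the other 5 called members were lost in at least 1. With 1 library left out the number of higher members was 5 to 7, being 5 without control replicate 3 or pregnant replicate 2. That of lower members was 1 to 4, being 1 without pregnant replicate 2 or 4. Lower transcripts in the whole table then numbered 1265 to 2017, lowest without pregnant replicate 2. The log2 change turned its sign for members that did not pass. With limma voom it was −0.015 for ADAM33, −0.015 for ADAMTS6 and 0.18 for ADAMTS3. With 1 library left out the range was −0.0023 to 0.22 for ADAM15, −0.26 to 0.085 for ADAMTS10, −0.20 to 0.18 for ADAM33, −0.12 to 0.13 for ADAM17, −0.22 to 0.095 for ADAMTS4, −0.081 to 0.15 for ADAMTS6, −0.0041 to 0.33 for ADAMTSL3, −0.26 to 0.68 for ADAMTS3 and −0.47 to 0.54 for ADAM30. The cause was not tested.

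Whether replicate numbers in the titles pair the animals is not known. Deviations of same-numbered libraries correlated at 0.186, −0.0932, −0.0318 and 0.0854, and those of differently numbered ones at −0.328 to 0.167. Such correlations cannot show how the animals were allocated. With the number as a replicate block 7 members were higher and 2 lower, ADAMTS15 no longer passed (adjusted p = 0.0618), and the log2 change was −0.010 for ADAM33, 0.0023 for ADAM17, −0.0032 for ADAMTS6 and 0.19 for ADAMTS3. ADAM7, ADAM30 and ADAMTS16 had at most 103 reads in either group, which limits their precision.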
